A study of Homo sapiens with 6 samples.

Results

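Collagen chain genes were described here as carriers of thymidine glycol (Tg), an oxidised form of thymidine in DNA. The members were all protein-coding genes whose symbol is COL, a number, A and a number in the RefSeq table of GRCh38.p14, which gave 44 of the 20037 protein-coding genes on the main chromosomes. A Tg site belonged to a gene when its midpoint lay in the gene body. Of 3688 sites listed for wild-type cells 24 fell in a collagen gene, and of 9373 sites listed for double-knockout cells 45 did.

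The cells were HEK293T, which derive from human embryonic kidney and carry the SV40 large T antigen, and Tg was mapped by DPC-Seq. The method ties added NTHL1 enzyme to DNA at the place of the oxidised base and sequences the bound fragments. One group was wild type and the other carried the genotype NTHL1-/-,NEIL1-/-, which removes a pair of DNA glycosylases that start the repair of Tg; neither received another treatment. Each group had 2 labelled libraries and 1 input library, but the deposited data are 1 list of sites per genotype. There is therefore no spread between replicates for any value below, and no test between the genotypes was possible. The kind of disruption and the number of clones behind the double-knockout line are not stated in the labels.

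Collagens are proteins of the extracellular matrix in which 3 chains wind into a triple helix. Fibrillar chains such as those of types I, II, III and V build the tensile fibres of skin, bone and cartilage, type IV chains form the sheet of basement membranes, and the fibril-associated chains (FACIT collagens) sit on the surface of fibres. The helix is encoded in many small exons, and the genes are often long. The lists record damage in DNA and say nothing of whether the chains were made in these cells.

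Tg sites were few in most collagen genes and many in a small number of them. In wild type 7 of the 44 genes (15.9%) held a site, against 5.88% of all protein-coding genes. In the double knockout 19 genes (43.2%) did, against 14.0%. Collagen genes were long, with a median of 145 kb against 24.1 kb. Set against genes of the same length class, they came near the background in the longest class. The shorter classes held too few collagen genes to tell a difference from the background in wild type. Of the 22 collagen genes of at least 150 kb, 22.7% held a wild-type and 40.9% a double-knockout site, against 19.0% and 43.2% of all protein-coding genes of that length. Of the 10 collagen genes from 50 to 150 kb, 20.0% and 70.0% did, against 8.99% and 20.6%. Of the 12 under 50 kb, none held a wild-type site (background 2.99%) and 3 held a double-knockout site (25%, background 7.58%).

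By length of gene body the collagen genes together held 3.45 sites per Mb in wild type and 6.47 in double-knockout cells, against 1.31 and 3.51 over all protein-coding genes. These levels rested on a few members. COL5A1, COL5A3 and COL22A1, which the wording of the rule names, held 14 of the 24 wild-type and 20 of the 45 double-knockout sites. Without them the levels were 1.57 and 3.92 per Mb. Of the sites that remained, COL18A1 alone held 5 of 10 in wild type and 5 of 25 in the double knockout. At least 3 sites were found in 3 collagen genes in wild type (6.82%, background 0.509%) and in 6 in the double knockout (13.6%, background 1.83%). These backgrounds are not matched for length. Among collagen genes of at least 150 kb the shares were 9.09% and 18.2%, against 2.94% and 11.3% of all protein-coding genes that long. From 50 to 150 kb they were 10.0% and 20.0%, against 0.663% and 2.18%, and under 50 kb no collagen gene had 3 sites. Without the genes named in the rule, 1 (2.44%) and 3 (7.32%) collagen genes had at least 3.

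**Figure D1:**
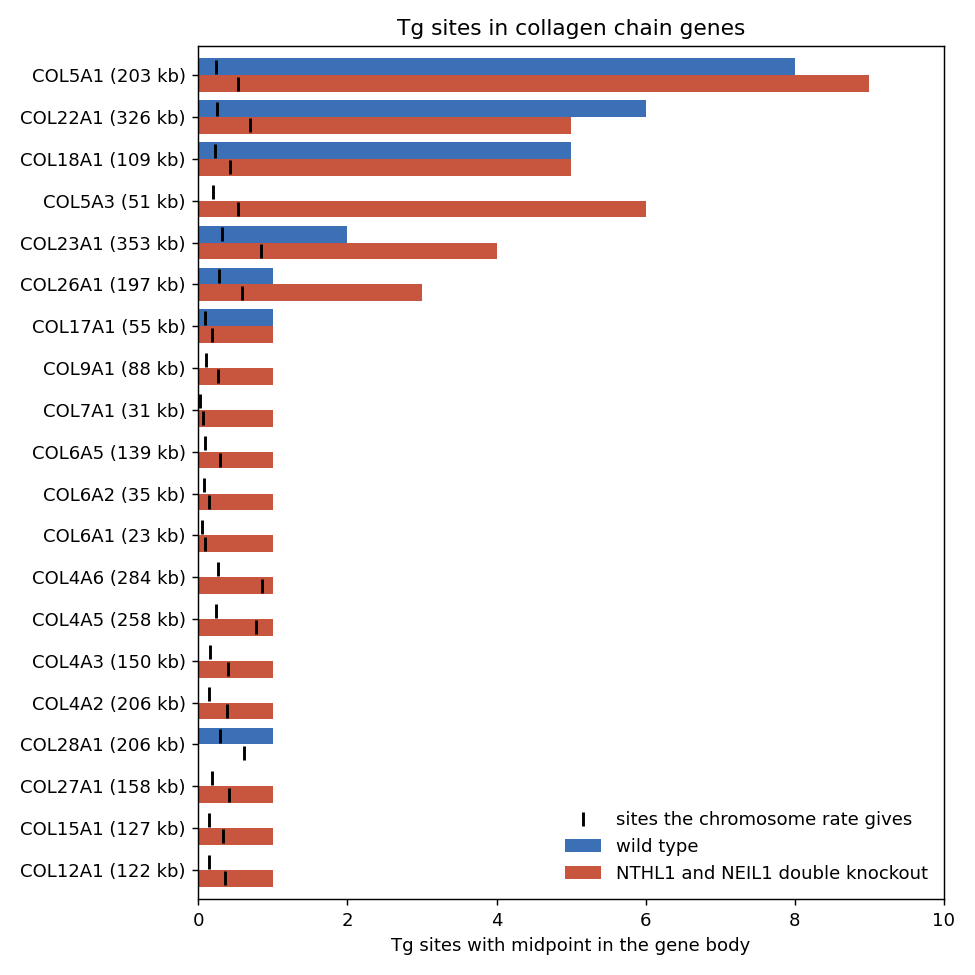
Tg sites per gene for the 20 collagen genes with a site in either list; bars give the number of sites and black ticks the number that the site rate of the chromosome gives for the length of the gene. COL5A1 leads with 8 wild-type and 9 double-knockout sites, COL5A3 has 0 and 6, and 13 genes have double-knockout sites only.

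**Figure D2:**
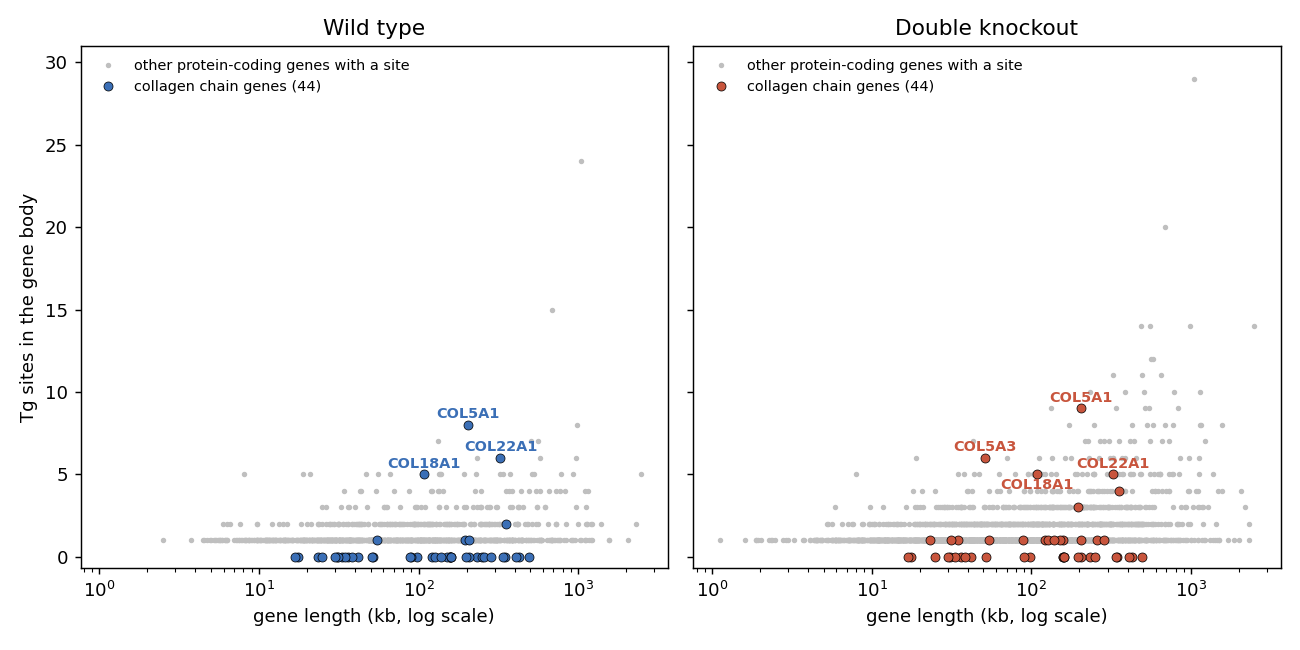
Sites per gene against gene length (log scale) for all 44 collagen genes and, in grey, the other protein-coding genes with at least 1 site in that list. Most collagen genes lie at 0 or 1 site whatever their length, while COL5A1, COL22A1 and COL18A1 hold at least 5 in both lists and COL5A3 holds 6 in the double knockout.

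The starts of the collagen genes carried no site. RefSeq promoter windows, from 250 bases before to 50 bases after the start of a gene, were at hand for 32 of the 44 genes, and none of them overlapped a site of either list or came within 1 kb of one. Such overlaps were also rare among all 15843 protein-coding promoter windows, of which 13 overlapped a wild-type and 26 a double-knockout site, and 92 and 254 had one within 1 kb, so that little can be read from the absence. The 250 bases before the start are shown for the 3 genes with at least 5 sites in a list among those with a window, since they mark the point from which distances are counted; thymines, the base that is oxidised to Tg, are in capitals on the strand of the gene (RefSeq, GRCh38.p14).

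COL5A1: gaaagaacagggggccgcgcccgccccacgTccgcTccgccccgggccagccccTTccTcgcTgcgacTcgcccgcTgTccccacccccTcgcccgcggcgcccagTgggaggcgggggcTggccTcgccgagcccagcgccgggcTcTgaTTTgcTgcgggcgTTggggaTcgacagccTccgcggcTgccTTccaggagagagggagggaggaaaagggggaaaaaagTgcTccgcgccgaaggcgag
COL18A1: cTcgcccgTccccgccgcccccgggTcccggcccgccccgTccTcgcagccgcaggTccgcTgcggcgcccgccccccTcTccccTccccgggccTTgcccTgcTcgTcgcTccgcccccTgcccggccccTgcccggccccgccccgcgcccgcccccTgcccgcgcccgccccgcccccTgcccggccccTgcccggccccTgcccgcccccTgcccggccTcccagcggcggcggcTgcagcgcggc
COL5A3: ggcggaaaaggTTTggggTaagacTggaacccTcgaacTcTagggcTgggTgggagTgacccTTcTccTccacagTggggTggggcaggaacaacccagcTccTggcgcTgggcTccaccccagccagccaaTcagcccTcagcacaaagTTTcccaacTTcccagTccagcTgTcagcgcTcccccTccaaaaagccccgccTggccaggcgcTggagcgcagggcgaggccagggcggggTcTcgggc

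The windows lie at chr9:134641553-134641802 on the plus strand for COL5A1, at chr21:45404915-45405164 on the plus strand for COL18A1, and at chr19:10010505-10010754 on the minus strand for COL5A3. They hold 28, 25 and 37 thymines on the strand of the gene, or 11.2%, 10.0% and 14.8% of the bases. Thymines of the other strand, which face the adenines shown, number 37, 4 and 48. The median thymine share of the full windows was 17.2% for the collagen genes and 18.7% for all protein-coding genes. The COL5A1 window was 27.0 kb from the nearest wild-type site and 26.6 kb from the nearest double-knockout site. The COL18A1 window was 50.9 kb from a wild-type site, but a double-knockout site lay 1.08 kb before it, outside the gene body. For COL5A3 these distances were 152 kb and 3.14 kb, and the double-knockout site was inside the gene.

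Among the 11 fibrillar genes, COL5A1 and COL5A3 held nearly all sites. COL5A1 encodes the main chain of type V collagen, which joins type I fibres and limits their diameter. It spans 203 kb on chromosome 9 (134641803 to 134844843) and its midpoint lies 3.59 Mb from the end of the annotated chromosome. It held 8 wild-type sites (exact Poisson interval 3.45 to 15.8) and 9 double-knockout sites (4.12 to 17.1). A gene of its length would hold 0.242 and 0.534 sites at the rate of chromosome 9. Intervals on counts of sites and reads have a level of 95% and cover counting error only. Its surroundings were also rich, with 11.5 and 14.0 sites per Mb in the 1 Mb on either side, against 39.4 and 44.3 per Mb within the gene. Only 2 protein-coding genes had more wild-type sites than COL5A1, and 16 had more double-knockout sites.

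The COL5A1 sites formed 9 separate loci, of which 7 were in both lists, 2 in the double knockout alone and none in wild type alone. From the start of the gene, the wild-type sites lay at 27.3, 103, 107, 118, 119, 146, 147 and 187 kb. Their fold enrichments over the background of the peak caller were, in that order, 4.46, 5.36, 6.95, 5.58, 5.63, 7.19, 5.30 and 6.83. The double-knockout list repeated the same places, with 1 site of 909 bp in place of the pair at 146 and 147 kb. It added weak sites at 72.7 kb (fold 3.01) and 182 kb (fold 4.36). Its folds at the 7 shared loci were 6.46, 7.41, 7.32, 5.60, 4.53, 4.93 and 5.86. The strongest was at 103 kb (chr9:134744175-134744893, −log10 q 16.4 in the authors' deposited table), ranked 388 of the whole double-knockout list. The sites at 182 and 187 kb also lie in a long non-coding RNA gene, LOC101448202.

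**Figure D3:**
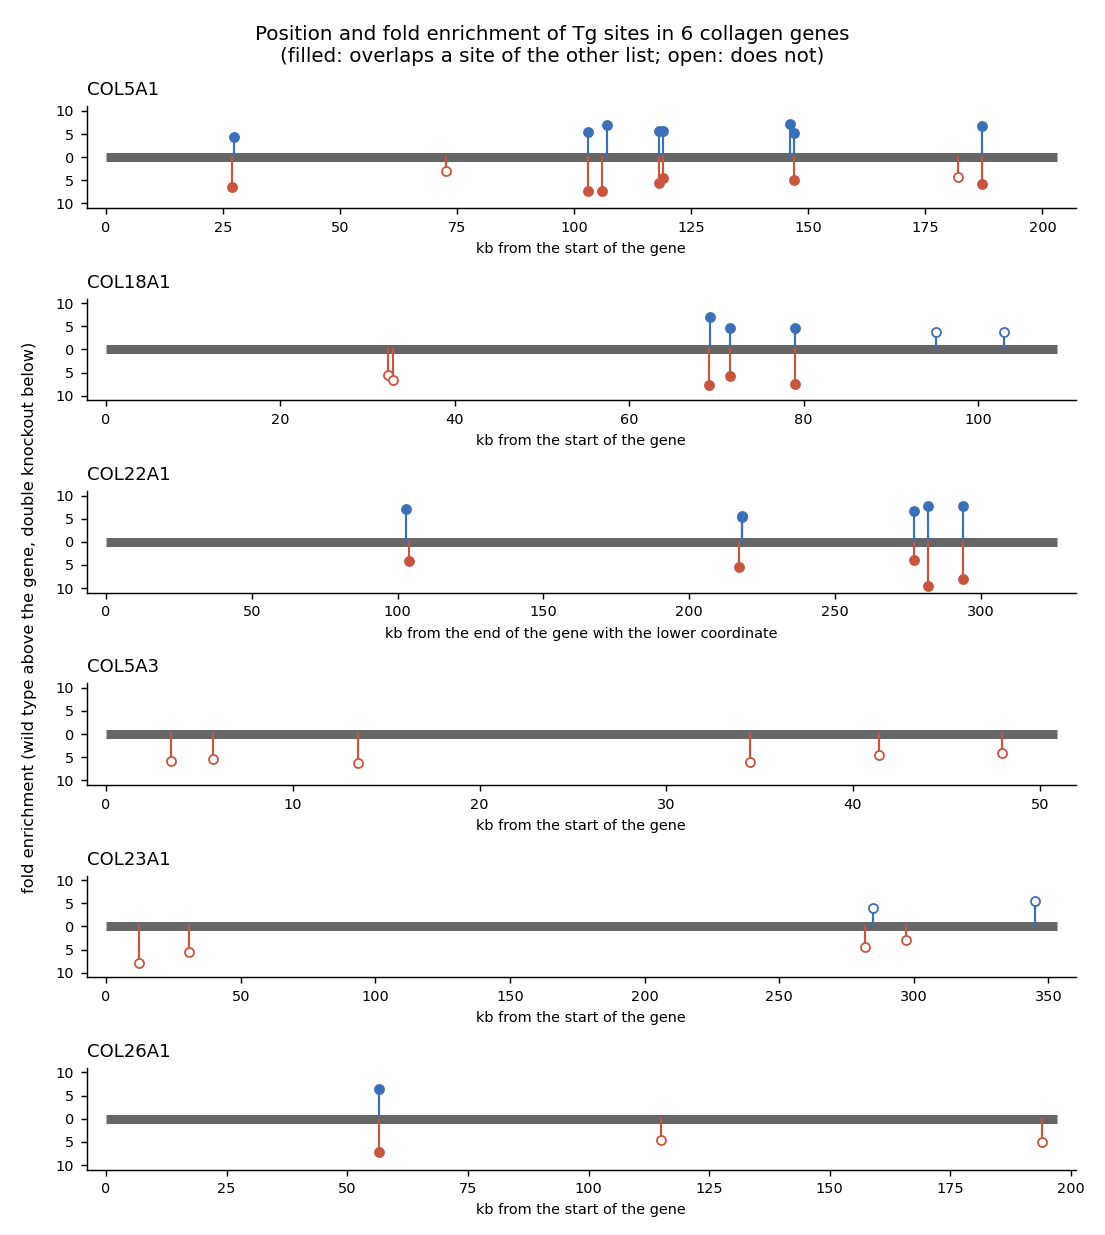
Fold enrichment of each site along the 6 collagen genes with at least 3 sites in either list, wild type above and double knockout below the gene; the horizontal axis is the distance from the start of the gene in kb, or for COL22A1 from its lower coordinate. Filled points overlap a site of the other list: all 5 loci of COL22A1 and 7 of 9 in COL5A1 do, and none in COL5A3 or COL23A1.

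COL5A3, which encodes another chain of type V collagen, showed the opposite arrangement. It is a gene of 50.9 kb on chromosome 19 (9959561 to 10010504) with 0 wild-type sites (exact Poisson interval up to 3.69; by the simpler limit of 3 counts, up to 0.0813% of the list) and 6 double-knockout sites (2.20 to 13.1). The chromosome rate gives 0.197 and 0.529 sites. The 6 sites were spread over the gene, at 3.48, 5.71, 13.5, 34.5, 41.4 and 48.0 kb from its start. They had folds of 5.89, 5.28, 6.21, 5.96, 4.56 and 3.99 and 26, 19, 25, 22, 13 and 10 reads at the summit. The nearest wild-type site was 104 kb from any of them. The 1 Mb on either side of the gene held 2.5 sites per Mb in wild type and 6.0 in double-knockout cells, against 118 in the gene in the double knockout. At least 6 double-knockout sites with no wild-type site were found in 5 protein-coding genes (0.0250%), COL5A3 among them; this threshold is the gene's own count.

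The lists differ in depth, which bears on COL5A3. The double-knockout data were 1.61 times deeper, or 1.69 times with the fragment length, as read from the lowest backgrounds of the lists. With reads thinned by 1.69 and sites counted at or above the −log10 p of the median wild-type site (8.46), the expected number of COL5A3 sites is 2.05, against 0 in wild type. At or above the 25th percentile of that measure among wild-type sites (6.79) it is 3.17, against 0. For COL5A1 the same calculation gives 3.11 and 4.77 expected double-knockout sites, against 6 and 7 in wild type. The wild-type share of all COL5A3 sites was 0% (exact binomial interval up to 45.9%), and this interval held 28.2%, the wild-type share of all listed sites. The gene was known beforehand for this difference, so the values are a description.

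The other fibrillar genes had little. COL27A1, a fibrillar chain of cartilage, held 1 double-knockout site (fold 5.79, 19.7 kb from the start) and no wild-type site. COL1A1 and COL1A2 of type I, COL2A1 of type II, COL3A1 of type III, COL11A1 and COL11A2 of type XI, COL24A1 and COL5A2 held none in either list. Little can be read from these absences. The chromosome rate gives 0.0682 to 0.108 double-knockout sites in COL1A1, COL1A2, COL2A1 and COL3A1. The rate gives 1.05 in COL11A1, 1.08 in COL5A2, the remaining type V chain, and 1.93 in COL24A1. These values too lie below 3.69, the upper limit of the exact Poisson interval for 0 sites. COL5A2 spans 409 kb, more than COL5A1 and COL5A3 together, so that the type V genes ranged from 0 to 118 double-knockout sites per Mb.

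Among the 10 FACIT genes, COL22A1 held all of the wild-type sites. Its product is found at the junction of muscle and tendon. The gene spans 326 kb on chromosome 8 (138588235 to 138914041), 6.30 Mb from the end of the annotated chromosome, and held 6 wild-type sites (2.20 to 13.1) and 5 double-knockout sites (1.62 to 11.7). The chromosome rate gives 0.252 and 0.692. From its lower coordinate the wild-type sites lay at 103, 218, 218, 277, 282 and 294 kb, with folds of 7.04, 5.48, 5.30, 6.55, 7.71 and 7.79. Each overlapped a double-knockout site, so that all 5 loci were in both lists. The double-knockout folds were 4.15, 5.49, 3.95, 9.58 and 7.96, and the second of these sites was 1816 bp wide and covered the wild-type pair at 218 kb. The site with fold 9.58 (chr8:138869908-138870935) was the strongest collagen site of the double-knockout list, ranked 172 of 9373. The 1 Mb on either side of COL22A1 held 1.5 wild-type sites per Mb, against 18.4 in the gene. In the double knockout the levels were 5.5 and 15.3 per Mb.

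COL12A1 and COL9A1, a partner of type II collagen in cartilage, held 1 double-knockout site each, with folds of 3.58 and 4.24 and no wild-type site. COL14A1, COL16A1, COL19A1, COL20A1, COL21A1, COL9A2 and COL9A3 held none. COL19A1 and COL21A1 are as long as COL22A1, with 346 and 338 kb, and the chromosome rate gives them 1.02 and 0.997 double-knockout sites. Their surroundings held only 0.5 and 0 double-knockout sites per Mb.

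COL18A1 carried most of the sites of the multiplexin pair. It encodes a basement membrane collagen from which the fragment endostatin is cut, spans 109 kb on chromosome 21 (45405165 to 45513720) and lies 1.24 Mb from the end of the annotated chromosome. It held 5 sites in each list (1.62 to 11.7), where the chromosome rate gives 0.230 and 0.432. The 1 Mb on either side was also rich, with 7.00 sites per Mb in wild type and 12.5 in double-knockout cells, against 46.1 in the gene in both lists. The sites fell into 7 loci, of which 3 were in both lists, at 69.3, 71.5 and 79.0 kb from the start. The wild-type folds there were 7.05, 4.64 and 4.69 and the double-knockout folds 7.62, 5.71 and 7.41. The double knockout added a pair of sites at 32.3 and 32.9 kb (folds 5.55 and 6.69), and wild type added weak sites at 95.2 and 103 kb (folds 3.69 and 3.74). The site at 103 kb also lies in SLC19A1, a folate carrier gene that overlaps the end of COL18A1. COL15A1, the other multiplexin, held 1 double-knockout site (fold 4.54).

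Among the 4 transmembrane collagens, COL23A1 held sites in both lists at different places. It spans 353 kb on chromosome 5, 3.06 Mb from the end. Its wild-type sites lay 285 and 345 kb from the start (folds 4.02 and 5.58) and its double-knockout sites at 12.2, 30.7, 282 and 297 kb (folds 7.96, 5.62, 4.53 and 2.85). None overlapped a site of the other list, and the closest pair was 2.37 kb apart. The double-knockout sites near the start were the stronger, with −log10 q in the authors' deposited table of 14.3 and 10.3 against 5.56 and 2.82 for the others. COL17A1, a collagen of the hemidesmosomes that fasten skin cells to their base, held 1 weak site in each list (folds 3.74 and 3.83), and these overlapped. COL13A1 and COL25A1, at 494 kb the longest collagen gene, held none.

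The type IV genes of basement membranes lie in head-to-head pairs and held no wild-type site. In the double knockout 4 of the 6 held 1 site each. COL4A2 had a site 9.96 kb from its start (fold 4.68) and COL4A3, a chain of the kidney filter, one at 24.5 kb (fold 5.01). COL4A5 and COL4A6, which share a start region on chromosome X, had sites at 202 and 203 kb (folds 3.89 and 3.81). COL4A1 and COL4A4 had none. The 4 sites compare with 3.22 that the chromosome rates give (counting interval of the 4 sites 1.09 to 10.2), and in wild type the rates give 1.13.

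The type VI genes, whose chains form beaded filaments around cells, likewise had double-knockout sites only. COL6A1 and COL6A2 lie within 1 Mb of the end of chromosome 21, near COL18A1, and held 1 site each with folds of 4.12 and 3.41. COL6A5 on chromosome 3 held 1 with fold 5.85, and COL6A3 and COL6A6 held none. The 3 sites of the type VI genes (counting interval 0.619 to 8.77) compare with 1.11 that the chromosome rates give. In wild type the rates give 0.403, so that little can be read from the absence. COL7A1, the collagen of the anchoring fibrils of skin, held 1 double-knockout site (fold 4.88). The short network-forming chains COL8A1, COL8A2 and COL10A1 held none in the gene body. Within 10 kb of COL10A1 lay 2 double-knockout sites, and within 10 kb of COL6A2 lay 1 wild-type site. Of the remaining genes, COL26A1 held 1 wild-type site (fold 6.38) and 3 double-knockout sites (folds 7.26, 4.63 and 5.08), of which the strongest overlapped the wild-type site 56.6 kb from the start. COL28A1 held 1 wild-type site (fold 6.02) and was the only collagen gene with a wild-type site alone.

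Between the lists, 6 collagen genes held sites of both, 1 of wild type only and 13 of the double knockout only. Over all protein-coding genes these classes made up 5.09%, 0.799% and 8.87%, a background that is not matched for length. Of the 22 collagen genes of at least 150 kb, the classes held 4, 1 and 5. Of the 2043 protein-coding genes that long, they held 351, 37 and 532. The collagen genes had 1.88 times as many double-knockout as wild-type sites, and all protein-coding genes 2.67 times. At wild-type depth and above the wild-type median −log10 p, 15 wild-type collagen sites stood against an expected 14.4 double-knockout sites (15.5 with the ratio of depth alone). Over all protein-coding genes the same counts were 804 and 1126. The collagen sums joined genes whose values lay on either side. These counts per gene are small, and no difference within a gene was tested. Wild-type sites exceeded the expected double-knockout number in COL5A1 (6 against 3.11), COL22A1 (5 against 2.53) and COL26A1 (1 against 0.763). They fell below it in COL18A1 (1 against 3.37), COL5A3 (0 against 2.05) and COL23A1 (1 against 1.53).

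How many wild-type collagen sites had a counterpart in the double knockout depended on the overlap asked for. Of the 24, 19 (79.2%, exact binomial interval 57.8% to 92.9%) overlapped a double-knockout site, against 76.0% of all wild-type sites in protein-coding genes. When the overlap had to cover at least 50% of each of the sites, 50.0% of the 24 were shared. Of the 45 double-knockout sites 17 (37.8%, 23.8% to 53.5%) overlapped a wild-type site, against 27.2%. The intervals of both shares hold the background, but they treat sites as independent, and the shared sites were clustered in a few genes. Of the 17 collagen loci in both lists, COL5A1 held 7, COL22A1 5 and COL18A1 3. The pooled shares therefore do not describe the other collagen genes. In the double knockout the shared collagen sites had a median fold of 5.86 and 23 reads at the summit, and the 28 unshared sites a median fold of 4.65 and 18 reads. An expected 20.9% of these unshared sites would pass the wild-type median −log10 p at wild-type depth, against 16.5% of all unshared double-knockout sites in protein-coding genes.

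Reads at the shared places, once scaled for depth, differed by less than counting error between the genotypes. At the 19 shared wild-type sites the ratio of scaled double-knockout reads to wild-type reads had a median of 0.923 and ranged from 0.633 to 1.5. It was above 1 at 8 sites and below 1 at 11. The median over all 2776 shared wild-type sites was 0.945. By gene the medians were 0.871 for the 8 sites of COL5A1, 0.976 for the 6 of COL22A1 and 1.37 for the 3 of COL18A1. With 9 to 20 wild-type reads behind each value, the counting intervals of the genotypes overlapped at all 19 sites, so no difference at a single site was detectable at this depth.

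**Figure D4:**
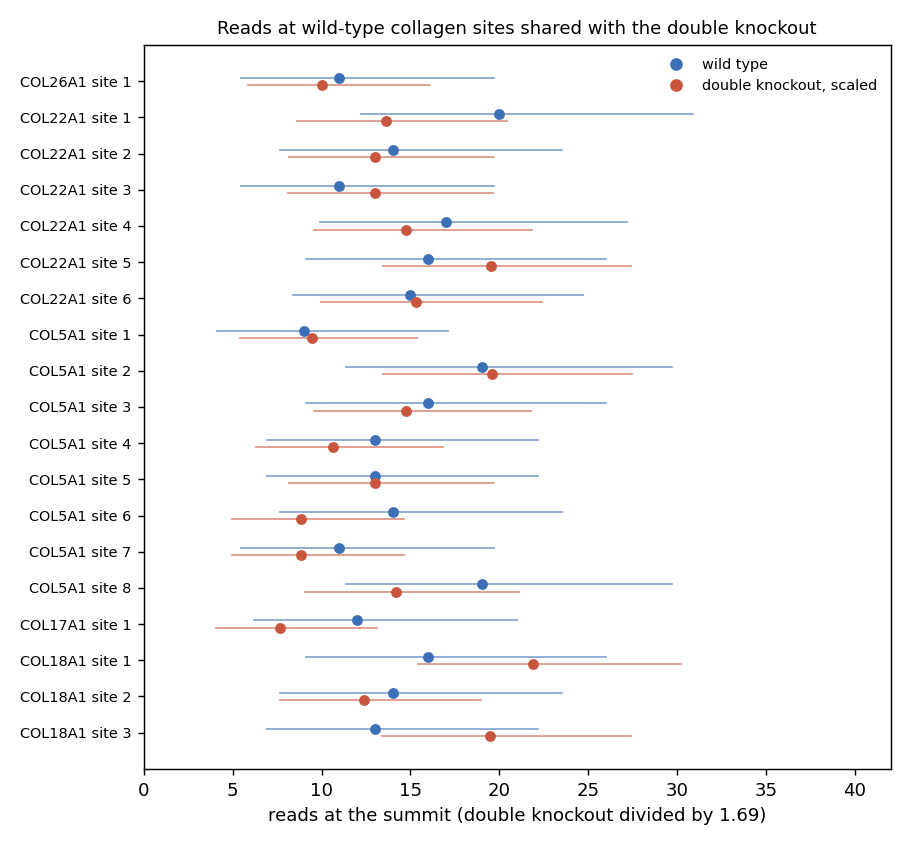
Reads at the summit of the 19 wild-type collagen sites that overlap a double-knockout site, with exact Poisson intervals of 95%; double-knockout reads and intervals were divided by 1.69, and sites are numbered along the chromosome. The 2 intervals overlap at each site, and COL22A1 sites 2 and 3 and COL5A1 sites 6 and 7 are each set against 1 wide double-knockout site.

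Collagen sites were of middling strength within their lists. Wild-type collagen sites had folds from 3.69 to 7.79 with a median of 5.58, against a median of 5.17 and a highest of 34.0 for all wild-type sites in protein-coding genes. The double-knockout folds ran from 2.85 to 9.58 with a median of 5.08, against a median of 4.94 and a highest of 28.9. The best-ranked wild-type collagen site, in COL22A1, stood at 376 of 3688.

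Collagen genes near chromosome ends held more sites per Mb than the others, through a few members. The midpoints of 10 collagen genes (22.7%, against 13.5% of all protein-coding genes) lay within 5 Mb of the end of the annotated chromosome. Of these 10 genes 3 held a wild-type site (30.0%, background 8.98% near ends) and 6 a double-knockout site (60.0%, background 14.9%). COL5A1, COL18A1 and COL23A1 were among them and held all of their wild-type sites (8, 5 and 2). In the double knockout these genes held 9, 5 and 4 sites. The 10 genes together held 15 of the 24 wild-type and 21 of the 45 double-knockout sites. That is 12.1 and 16.9 sites per Mb, against 4.16 and 7.41 for all protein-coding genes near ends. Of the 34 other collagen genes 4 held a wild-type site (11.8%, background 5.40%) and 13 a double-knockout site (38.2%, background 13.8%), at 1.57 and 4.20 per Mb against 1.05 and 3.15. COL22A1 and COL5A3, at 6.30 and 9.96 Mb from an end, were among these 34. The backgrounds of these shares of genes are not matched for length. Near ends the median length was 99.4 kb for collagen genes and 14.7 kb for all protein-coding genes. Away from ends it was 154 and 26.3 kb. COL4A1, COL6A3, COL9A3 and COL20A1 also lie near ends and held no site, where the chromosome rates give 0.131 to 0.295 double-knockout sites each. The copy number of these regions in HEK293T was not analysed here, and its part in the counts was not tested.

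Other genes of the collagen pathway were counted in the same way. The shares of genes below are not matched for length. Median lengths were 35.7 kb for processing, 61.9 kb for receptor, 102 kb for laminin and 12.0 kb for collagenase and gelatinase genes. Over all protein-coding genes the median was 24.1 kb. Of 32 genes for collagen modification and processing, 5 (15.6%) held a wild-type and 7 (21.9%) a double-knockout site, against 5.88% and 14.0% of all protein-coding genes. Their 2.34 and 4.21 sites per Mb lay below the 3.45 and 6.47 of the collagen genes, and above the 1.57 and 3.92 of the collagen genes without COL5A1, COL5A3 and COL22A1. ADAMTS2, which trims the ends of procollagen, held 1 and 3. Of 10 collagen receptor genes none held a wild-type site and 1, the integrin gene ITGA11, held 2 double-knockout sites (10.0% of the genes, background 14.0%). Of 12 laminin chain genes, which share the basement membrane with type IV collagen, 1 (8.33%, background 5.88%) held a wild-type and 3 (25%, background 14.0%) a double-knockout site. The laminin genes came to 0.553 and 2.77 sites per Mb, against 1.31 and 3.51 over all protein-coding genes. They held 1 and 5 sites, where the chromosome rates give 2.08 and 5.37. For the processing genes the counts were 5 and 9, against 2.18 and 5.59, and for the receptor genes 0 and 2, against 1.06 and 2.82. LAMA3 held 1 and 2 sites and LAMC3 0 and 2. Of the 6 collagenase and gelatinase genes, only MMP2 held a site, 1 in the double knockout (16.7% of the genes, background 14.0%), which over their short total length of 80.8 kb comes to 12.4 sites per Mb. None of these genes reached 5 sites in either list, as COL5A1, COL22A1 and COL18A1 did in both.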

How the data were processed

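The 44 members and all gene lists were chosen with earlier results of these data known. The submitters' processing notes name build hg38 and the tools Bowtie2, MACS2, bedtools and deepTools. Their versions and settings, and any pooling of the 2 libraries of a genotype, are not stated in the labels. Each list was given its genotype by the word in its name that matches the sample titles. In each deposited list the score equals 10 times the −log10 q without its decimals. The deposited fold enrichment is a ratio of summit reads to the caller's background, and the deposited −log10 p and −log10 q are the caller's; q reached 0.0450 at most in wild type and 0.0489 in the other list. These values are the authors' and describe sites within their list.

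Whole reads and background were recovered from each fold, (reads + 1) over (background + 1), and the Poisson −log10 p, within 0.001 at 100% of sites. Reads at a summit ranged from 6 to 405 in wild type, with a median of 13, and in the other list from 6 to 452, with a median of 17; total depth is unknown. The rate of a chromosome is its number of sites over its annotated span. Expected numbers after thinning are exact binomial sums. A shared site overlaps one of the other list by at least 1 bp. Gene names, spans and promoters are RefSeq's GRCh38.p14, whose primary coordinates are those of hg38. That table gives no exons, and a strand was taken from the promoter table. A site in overlapping genes counts for each. All collagen genes with a site are named, those with at least 3 sites in a list with every site, and other pathway genes with at least 2. Scripts ran in Python 3.11.15 with scipy 1.17.1 and were tested on simulated data.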

Additional observations from a re-analysis of the deposited data

How the results depend on the processing

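Counting a site by any overlap changed no count, and adding 10 kb on either side gave 8 wild-type and 20 double-knockout genes. With sites of −log10 q of at least 5, wild type had 15 collagen sites, 2.16 per Mb (0.570 over all protein-coding genes). With 1 site per 100 kb there were 11 wild-type sites (1.58 per Mb, background 0.968) and 24 double-knockout sites (3.45 per Mb, background 2.36). At wild-type depth and above the median wild-type −log10 p there were 15 wild-type sites, and an expected 14.4 double-knockout sites in 6.59 genes. Without genes within 5 Mb of an end there were 9 wild-type sites (1.57 per Mb) and 24 double-knockout sites (4.20 per Mb). Without COL5A1, COL5A3 and COL22A1 there were 10 (1.57 per Mb) and 25 (3.92 per Mb). These settings remove sites or genes by construction. When overlap had to cover at least 50% of each of the sites, 50.0% of the wild-type sites were shared. The other values stayed within 1.5 times, or within the counting interval, of the reported ones under the alternatives run for them; the read ratio was 0.973 by depth alone and 1.01 with the stricter overlap. Leaving out a library could not be run. No paired analysis was possible because each genotype has 1 list with no values per library. Single sites rest on 9 to 37 reads, exon positions were not analysed here, and the uneven copy number of HEK293T was not corrected for.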
